A study of Mus musculus with 3 samples.

Results

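The Krueppel-like factors (KLFs) are zinc-finger transcription factors, and the 10 family genes described here are Klf2, Klf3, Klf4, Klf6, Klf7, Klf9, Klf10, Klf12, Klf13 and Klf15. They were taken by gene name from the deposited expression table, where all 10 have a row among 16977 genes. The table comes from neural stem cells of C57BL/6J mouse embryos at E12.5, grown as adherent cultures with EGF and FGF and infected with a lentivirus. The virus carried a control short hairpin RNA (shControl, 1 library) or a hairpin against Phf2 (shPHF2, 2 libraries called biological replicates by the series). Both groups thus share the strain, the medium and the use of a lentivirus. Whether the libraries came from separate infections, and how many hairpins stand behind each name, is not stated. PHF2 belongs to the Jumonji histone demethylases and is known for binding and removing methyl marks on histone H3.

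KLF proteins share a C-terminal block of zinc fingers that binds GC-rich and CACCC-type DNA, as do the related SP factors. They differ in the rest of the protein, so one member can activate and another repress through similar sites. KLF2, KLF4, KLF6 and KLF7 have acidic N-terminal activation regions, KLF3, KLF8 and KLF12 recruit the corepressor CtBP, and KLF9, KLF10, KLF11, KLF13, KLF14 and KLF16 recruit SIN3A. In the nervous system, members of the family are known for roles in stem cell maintenance, glial differentiation and the capacity of neurons to extend axons.

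Values are normalised read counts (reads scaled by a size factor per library), and the 3 libraries held 26302177 to 37171026 reads in genes. Phf2 had 2593 normalised reads in shControl against 985 and 714 in shPHF2 replicates 1 and 2, so the targeted transcript was at 32.8% of the control. The neural stem list of Nes, Sox2, Pax6, Fabp7, Hes1, Hes5, Slc1a3, Vim, Notch1 and Prom1 summed to 331508 normalised reads in shControl against 345110 and 388761 in shPHF2 replicates 1 and 2. Within that sum Vim had 77235 against 116785 and 132042. Both shPHF2 libraries were above the control for 4 genes of the list and below it for 4, and 2 were split. Nes, the intermediate filament gene nestin, had between 98053 and 118161 normalised reads, while Hes5 had 14.5 to 39.9. By limma, Sox2 alone of that list was called, with 5893 normalised reads in shControl against 10114 and 8819 (adjusted p = 0.048, and 0.054 by edgeR); edgeR called 0 of the list and DESeq2 called 3. The oligodendrocyte lineage factor gene Olig1 was also high, with 37506 normalised reads in shControl. In bulk libraries such as these, fewer cells that use a gene and less RNA per cell cannot be told apart. The lone shControl library has no replicate, so its own error could not be estimated.

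Setting shPHF2 beside shControl shows how KLF transcripts stand when Phf2 is low. Klf9 and Klf6 rose, no KLF gene of the list fell by the test, and the other 8 did not pass it. The test was limma on log2(value + 1), two-sided, with a Benjamini-Hochberg adjusted p under 0.05 over 14148 genes. Over all genes tested, 31.2% had an unadjusted p under 0.05 by limma. After adjustment, 14.3% passed in either direction, 7.22% as higher and 7.11% as lower. The 2 of 10 KLF genes stand beside that background, and nothing particular to the family is read from so few. The same 2 genes were called by edgeR, which called 15.2% of all genes and 7.12% as higher, and by DESeq2 and the authors' deposited table, which each called 16.0% and 8.04% as higher. With no filter on low values, with quantile normalization or with limma without its mean-variance trend, Klf9 and Klf6 kept their direction and lost their calls, as did each gene called by limma and named here, since 0 of all genes passed in those settings (3893, 3700 and 3300 had an unadjusted p under 0.05). Fold changes are on the log2(value + 1) scale, which understates those of low genes. The median log2 fold change of the 10 genes was 0.18, and that of all genes tested was -0.01. Both shPHF2 libraries lay above the control for 5 KLF genes (Klf2, Klf3, Klf6, Klf7 and Klf9) and below it for 3 (Klf4, Klf12 and Klf15). For Klf10 and Klf13 the 2 shPHF2 libraries lay on opposite sides. Among all genes tested, both shPHF2 libraries were above the control for 41.4%, below it for 41.8% and on one side for 83.2%, so 8 of 10 is close to the background.

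**Figure D1:**
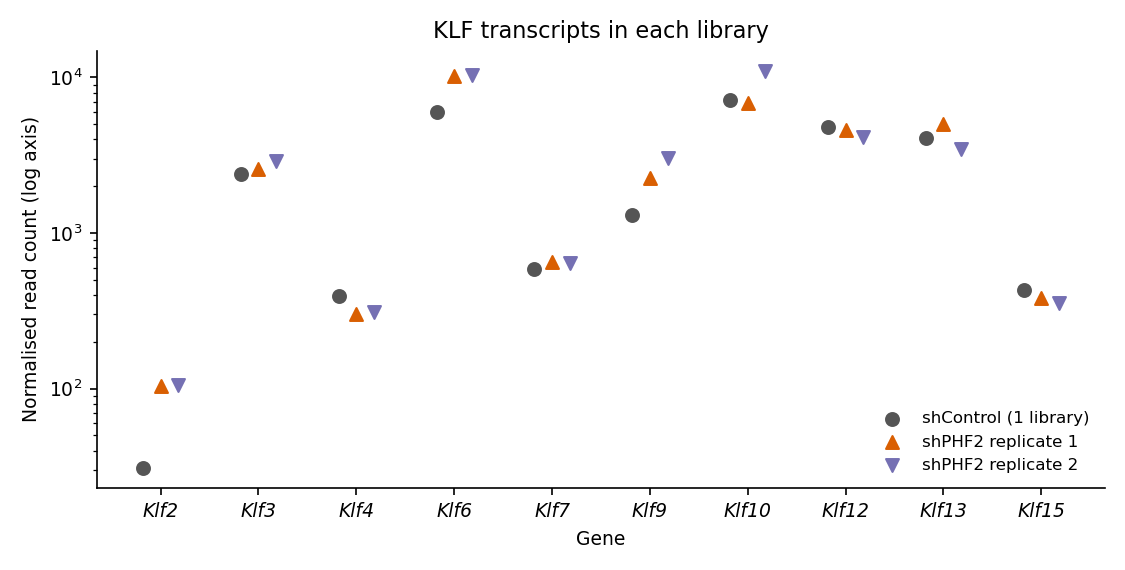
Normalised read count on a log axis for each of the 10 KLF genes, with 1 point for the shControl library and 1 for each of the 2 shPHF2 libraries. Both shPHF2 points of Klf2, Klf6 and Klf9 stand clear above the control point, while those of Klf10 and Klf13 fall on either side of it.

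Klf9 encodes a SIN3A-binding repressor that thyroid hormone and glucocorticoids are known to induce in the brain. The gene lies on the plus strand of chromosome 19 from 23141226 to 23168134 (GENCODE M21, GRCm38). It had 1307 normalised reads in shControl against 2260 and 3044 in shPHF2 replicates 1 and 2. Both shPHF2 libraries were above the control, by less in replicate 1, which stood at 173% of the control, than in replicate 2, which stood at 233%. The shPHF2 mean was 2652 ± 554 (SD, n = 2), and the log2 difference was 1.00 (SE 0.22; adjusted p = 0.025 by limma). On the fold scale this is 2.01, with a 95% interval of 1.41 to 2.86.

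Klf6 encodes an activator first known as a zinc-finger protein of the core promoter and as an early response gene. It lies on the plus strand of chromosome 13 from 5861482 to 5870394. It had 5984 normalised reads in shControl against 10262 and 10442 in shPHF2 replicates 1 and 2. The shPHF2 libraries were nearly equal and both above the control. Their mean was 10352 ± 127 (SD, n = 2), a log2 difference of 0.79 (SE 0.18; adjusted p = 0.027 by limma) and a fold of 1.73 with a 95% interval of 1.30 to 2.30.

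Klf2, the lung Krueppel-like factor known from endothelium and resting T cells, had the widest difference of the 10 genes and did not pass the test. It lies on the plus strand of chromosome 8 from 72319033 to 72321656. It had 30.9 normalised reads in shControl against 103 and 106 in shPHF2 replicates 1 and 2. These rest on 31, 124 and 88 reads. The exact Poisson 95% interval of the control value ends at 43.9, and those of the shPHF2 values begin at 86.0 and 85.1; such intervals cover counting error only. The log2 fold change was 1.73 (SE 0.48; limma, unadjusted p = 0.0073 and adjusted p = 0.0503). The 95% interval of the fold was 1.53 to 7.17. The difference had the same sign in all 11 other settings tried, and in those with a test the adjusted p was never under the threshold, ranging up to 0.161.

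Because Klf2 is well known from endothelial and blood cells, markers of such cells are given beside it. The 8 endothelial markers summed to 298 normalised reads in shControl against 351 and 183 in shPHF2 replicates 1 and 2, with 0 of the 2 members tested called (limma; 0 at an unadjusted p under 0.05, and 0 by edgeR and DESeq2). Of them, Pecam1 had at most 3.99 normalised reads in any library, and Cldn5 was at 3.99 in shControl and 0 in both shPHF2 libraries. Kdr (200, 156 and 77.2) and Tek (78.7, 165 and 95.2) made up nearly all of the sum, Kdr below the control in both shPHF2 libraries and Tek above it. The part of such cells in the Klf2 difference was not tested. Of 9 microglial markers, 3 had a row, and they summed to 111 normalised reads in shControl against 234 and 227 in shPHF2 replicates 1 and 2. Nearly all of this was P2ry12, a purinergic receptor gene, at 99.7, 204 and 213 normalised reads in the same order, while Aif1 had 0 in shControl and at most 2.50 elsewhere. Csf1r had 11.0, 27.5 and 10.9 in the same order. The microglial sum moved in the same direction as Klf2, and its part was not tested either. Of 7 erythroid markers, 3 had a row, and they summed to 115 normalised reads in shControl against 82.5 and 45.8 in shPHF2 replicates 1 and 2. Nearly all of this was Alas2, at 107, 70.0 and 42.2. The erythroid sum moved opposite to Klf2, and its part was not tested.

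**Figure D2:**
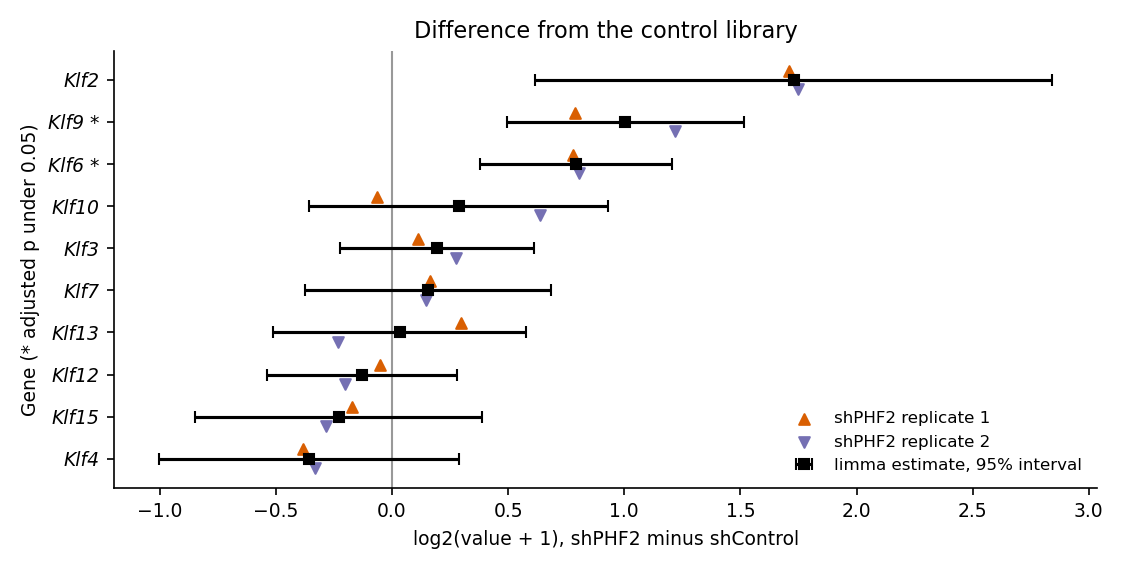
Difference on the log2(value + 1) scale between shPHF2 and shControl for each KLF gene, with black squares for the limma estimate, bars for its 95% interval and triangles for the single shPHF2 libraries. Klf2, Klf9 and Klf6 have intervals above 0, and the asterisk marks Klf9 and Klf6, the 2 that passed after adjustment over all genes.

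The upstream sequences of these 3 genes are shown because these genes had the widest differences among the 10. They come from RefSeq (GRCm38.p6), which matched 9 of the 10 genes; Klf10 had no entry. Each run covers 220 bases, from 250 to 31 bases before the RefSeq start, read 5′ to 3′ on the strand of the gene. Klf9 is chr19:23140976-23141195, Klf6 is chr13:5861239-5861458 and Klf2 is chr8:72318812-72319031, all on the plus strand. Capitals mark matches on either strand to CACCC (a KLF-type box), GGGCGG (a GC box) and CCAAT (the box bound by NF-Y). Matches may overlap, as CCAAT and its reverse complement do once in Klf9.
Klf9: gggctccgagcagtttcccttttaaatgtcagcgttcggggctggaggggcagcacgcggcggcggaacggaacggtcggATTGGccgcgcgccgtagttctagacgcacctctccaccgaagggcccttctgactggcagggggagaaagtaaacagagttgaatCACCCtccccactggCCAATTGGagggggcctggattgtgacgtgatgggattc
Klf6: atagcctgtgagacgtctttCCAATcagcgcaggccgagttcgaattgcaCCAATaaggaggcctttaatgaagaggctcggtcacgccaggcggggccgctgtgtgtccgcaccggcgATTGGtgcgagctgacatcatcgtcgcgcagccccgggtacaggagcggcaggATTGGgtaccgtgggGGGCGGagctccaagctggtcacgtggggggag
Klf2: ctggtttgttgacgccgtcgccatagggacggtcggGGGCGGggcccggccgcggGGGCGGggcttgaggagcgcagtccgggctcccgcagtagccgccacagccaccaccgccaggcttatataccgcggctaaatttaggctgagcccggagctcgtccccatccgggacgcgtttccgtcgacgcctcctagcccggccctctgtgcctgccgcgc

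Klf6 had 4 matches to CCAAT and Klf9 had 3, whereas Klf2, Klf3, Klf4, Klf7 and Klf12 had 0, Klf15 had 1 and Klf13 had 2. Among 32851 promoter windows of the same length, 31.0% held at least 1, 2.12% held 3 or more and 0.594% held 4 or more. The KLF-type box CACCC, found in 47.8% of windows, was matched once in Klf9 and not in Klf6 or Klf2. The GC box GGGCGG, found in 28.5% of windows, had 0 matches in Klf9, 1 in Klf6 and 2 in Klf2, against 6 in Klf3 and 4 in Klf4. The TATA-type motif TATAAA, in 9.95% of windows, was matched in Klf12 only among the 9. Each window ends 31 bases before the start, so a TATA box nearer to the start would not be seen. No presence or lack of a TATA promoter is read from this. The Klf12 window, chr14:100149827-100150046, lies inside the annotated gene and far from its 5′ end at 100284679, so it belongs to an internal start. The Klf7 window, chr1:64121420-64121639, also lies inside its annotated gene, whose 5′ end is at 64122282. The Klf3 window, chr5:64803271-64803490, runs past the annotated start of its gene at 64803388. Counts in these windows thus describe sequence wholly or partly inside the annotated gene. All these matches describe letters in a window and not bound sites.

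The remaining activator-type genes were Klf4 and Klf7. Klf4, a pluripotency factor also known for arresting the cell cycle in epithelia, lies on the minus strand of chromosome 4 from 55527143 to 55532466. It had 392 normalised reads in shControl against 300.1 and 311 in shPHF2 replicates 1 and 2, a log2 difference of -0.36 (SE 0.28; adjusted p = 0.43 by limma). The shPHF2 values were lower than the control, and the 95% interval of the fold, 0.50 to 1.22, includes no change. Klf7, known for its part in neurite outgrowth and sensory neuron development, lies on the minus strand of chromosome 1 from 64029447 to 64122282. It had 583, 654 and 646 normalised reads in the order shControl, replicate 1 and replicate 2, and the 95% interval of its fold was 0.77 to 1.61. Its annotated exons share 3196 bases with Gm26649, a long non-coding RNA gene on the other strand. The kit keeps strand, but whether the counting used it is not stated, so for that stretch it is open whether some Klf7 reads belong to Gm26649.

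Klf10 and Klf13, which like Klf9 recruit SIN3A, differed between the shPHF2 libraries. Klf10, the TGF-beta-inducible early gene, lies on the minus strand of chromosome 15 from 38291463 to 38300706. It had 7115 normalised reads in shControl against 6815 and 11069 in shPHF2 replicates 1 and 2. Replicate 1 was thus near the control and replicate 2 at 156% of it, and the log2 difference of 0.29 (SE 0.28; adjusted p = 0.53 by limma) would be -0.06 from replicate 1 alone and 0.64 from replicate 2 alone. Klf13, an activator of the chemokine gene RANTES in T cells that lies on the minus strand of chromosome 7 from 63886351 to 63938915, had 4073, 5012 and 3464 normalised reads in the same order. Its shPHF2 values fell on both sides of the control and differed from each other by a ratio of 1.45, and the 95% interval of the fold was 0.70 to 1.49. With these data a difference of Klf10 or Klf13 as small as the spread between the shPHF2 libraries was not detectable. A larger one may be missed as well.

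For the CtBP-recruiting repressor genes Klf3 and Klf12, the 95% interval of the fold included no change. Klf3, a regulator of fat and blood cell differentiation, had 2401 normalised reads in shControl against 2595 and 2908 in shPHF2 replicates 1 and 2, and the 95% interval of its fold was 0.86 to 1.53. It lies on the plus strand of chromosome 5 from 64803388 to 64832901, and its exons share 404 bases with Gm20033 on the other strand. Klf12, a repressor of the AP-2 alpha gene, had 4795, 4628 and 4166 normalised reads in the same order, with a fold interval of 0.69 to 1.22. It lies on the minus strand of chromosome 14 from 99870632 to 100284679. Klf15, a glucocorticoid-responsive regulator of amino acid and glucose metabolism on the plus strand of chromosome 6 from 90462576 to 90475238, had 432, 383 and 354 normalised reads. For these 3 genes the adjusted p by limma was 0.51 to 0.67, and neither rise nor fall passed the test.

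Set per kilobase of annotated exon, so that genes can be compared with each other, the 10 transcripts spanned a wide range of levels. The mean over the 3 libraries was 2026 normalised reads per kilobase for Klf6 and 1994 for Klf10. Klf12 (648), Klf13 (555) and Klf9 (458) formed a middle group on the same scale. Klf3 stood at 234, Klf15 at 140, Klf4 at 110, Klf7 at 77.2 and Klf2 at 43.4 normalised reads per kilobase. Neighbours in this order had overlapping ranges over the libraries for Klf6 and Klf10, for Klf12 and Klf13, for Klf13 and Klf9, and for Klf15 and Klf4, so those orders are not resolved. Klf2 ranked last and Klf7 next to last in each of the 3 libraries, so the higher Klf2 values left it the least abundant of the 10. Klf9 held rank 5 in shControl and in replicate 1 and rank 3 in replicate 2, and Klf6 led only in replicate 1, with Klf10 first in the other libraries. Exon lengths merge all annotated isoforms, and a long merged length such as the 11243 bases of Klf3 lowers its value.

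**Figure D3:**
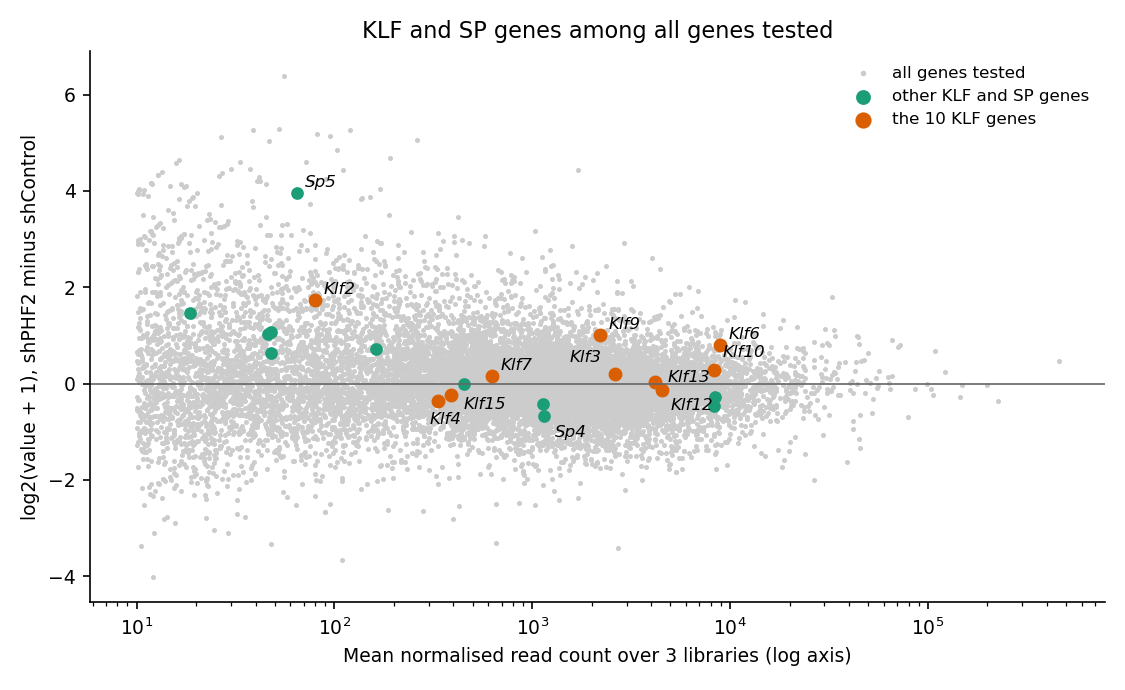
Mean normalised read count over the 3 libraries on a log axis against the log2 difference of shPHF2 from shControl, with grey points for all 14148 genes tested, orange for the 10 KLF genes and green for other KLF and SP genes. The KLF genes run from Klf4 at -0.36 to Klf2 at 1.73, and Sp5 stands apart at 3.95.

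Other KLF genes of the table were sparse, apart from Klf16. Of the 6 with a row, Klf1, the erythroid factor, and Klf14 had a mean under 10 and were not tested. Klf5, known from intestinal and smooth muscle cells, had 26.9 normalised reads in shControl against 69.2 and 48.2 in shPHF2 replicates 1 and 2. Klf8 had 24.9, 79.2 and 33.8, and Klf11, a TGF-beta-inducible SIN3A partner, had 111, 224 and 151 in the same order. All 3 were above the control in both shPHF2 libraries, as were 41.4% of all genes tested, with limma adjusted p-values of 0.26 to 0.36. Klf16 had 1359, 908 and 1116 normalised reads and an adjusted p of 0.22 (limma). None of the 4 tested was called, 0 had an unadjusted p under 0.05, and edgeR and DESeq2 also called 0. Over all genes tested, limma called 14.3%, and 31.2% had an unadjusted p under 0.05, so little is read from 4 genes.

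The SP genes, whose products bind the same GC-rich sites, held 1 called gene, Sp5, which rose. Sp5, a WNT-responsive gene of early embryos on chromosome 2 from 70474923 to 70477729, had 4.98 normalised reads in shControl against 72.5 and 116 in shPHF2 replicates 1 and 2. It was close to undetected in the control and clearly counted in both shPHF2 libraries, from 5, 87 and 96 reads. Its log2 difference was 3.95 (SE 0.65; adjusted p = 0.011 by limma). The abundant Sp1 had 10119, 7878 and 6778 normalised reads, Sp3 had 9536, 8208 and 7483, and Sp4, a neuronal member, had 1530, 1042 and 889, in the order shControl, replicate 1 and replicate 2. Each of these was below the control in both shPHF2 libraries, with log2 fold changes of -0.47, -0.28 and -0.67 and adjusted p-values of 0.14, 0.33 and 0.070 (limma). Sp2 had a log2 fold change of -0.01, Sp6 of 0.64 and Sp9 of 1.47, and none passed; Sp7 and Sp8 had a mean under 10. In all, 1 of 7 SP genes tested was higher and 0 lower by limma, against 7.22% and 7.11% of all genes tested. By limma 3 of the 7 had an unadjusted p under 0.05, against 31.2% of all genes tested. By edgeR and by DESeq2, 1 was called.

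No tested gene of the cofactors and upstream regulators of KLF proteins was called. Among 13 cofactor genes, which include Ctbp1, Ctbp2, Sin3a and Sin3b, 0 passed (limma; 2 had an unadjusted p under 0.05, and edgeR and DESeq2 called 0), with a median log2 fold change of -0.29. The shPHF2 libraries were both below the control for 9 of them and both above for 2, against 41.8% and 41.4% of all genes tested. Limma called 14.3% of all genes tested, and 31.2% had an unadjusted p under 0.05. Nothing particular is read from 0 calls in lists this short. Of 8 ubiquitin ligase genes for KLF proteins, such as Wwp1 and Fbxw7, 0 passed (limma; 1 at an unadjusted p under 0.05, and 0 by edgeR and DESeq2). Of 7 tested genes of the MEK5, ERK5 and MEF2 pathway, which is known to induce Klf2 and Klf4, 0 passed (limma; 0 at an unadjusted p under 0.05, and 0 by edgeR and DESeq2), and the median log2 fold change was 0.09.

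The list of steroid and thyroid hormone receptors and responsive genes bears on Klf9 and Klf15, which such hormones are known to induce. Of 11 tested, 1 rose and 1 fell, with a median log2 fold change of 0.48. Limma called 7.22% of all genes tested higher and 7.11% lower. In this list 5 had an unadjusted p under 0.05 by limma, against 31.2% of all genes tested. By edgeR and by DESeq2, 2 were called. Thrb, the thyroid hormone receptor beta gene, had 247 normalised reads in shControl against 756 and 543 in shPHF2 replicates 1 and 2, a log2 difference of 1.37 (SE 0.29; adjusted p = 0.022 by limma). Fkbp5, a glucocorticoid-induced chaperone gene, had 2645, 1501 and 1257 normalised reads in the same order, and its log2 difference was -0.94 (SE 0.20; adjusted p = 0.022 by limma). Thrb and Fkbp5 thus moved in opposite directions, but they belong to different hormones. Both shPHF2 libraries were above the control for 9 of the 11 genes, against 41.4% of all genes tested. Fkbp5 was the only gene of the list below it in both, and 1 gene was split.

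TGF-beta and BMP-inducible genes, the company of Klf10 and Klf11, also went both ways. Of 11 tested, 3 rose and 1 fell, with a median log2 fold change of 0.63. Limma called 7.22% of all genes tested higher and 7.11% lower. In this list 5 had an unadjusted p under 0.05 by limma, against 31.2% of all genes tested. By edgeR and DESeq2, 4 and 5 were called. Id2, an inhibitor of basic helix-loop-helix factors, had 955 normalised reads in shControl against 3105 and 4017 in shPHF2 replicates 1 and 2, a log2 difference of 1.89 (SE 0.21; adjusted p = 0.0047 by limma). Its relative Id1 had 431, 1003 and 1063 in the same order. The SMAD corepressor genes Ski and Skil changed in opposite directions, Ski with 4689, 7975 and 7441 normalised reads and Skil with 3525, 2065 and 1608. Their log2 fold changes were 0.72 and -0.95 (limma, adjusted p = 0.035 and 0.024).

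Genes known as KLF targets had 0 higher and 2 lower calls by limma among 15 tested, with a median log2 fold change of 0.27; 5 had an unadjusted p under 0.05, and edgeR and DESeq2 called 2 and 3. Over all genes tested, limma called 7.22% higher and 7.11% lower, and 31.2% had an unadjusted p under 0.05. Any part of KLF genes in the differences given next was not tested. The TGF-beta type I receptor gene Tgfbr1, a reported KLF6 target, had 5503 normalised reads in shControl against 1637 and 1362 in shPHF2 replicates 1 and 2. Its log2 difference was -1.88 (SE 0.19; adjusted p = 0.0045 by limma). The mitotic cyclin gene Ccnb1, which KLF4 is known to repress, had 6041, 3121 and 2291 in the same order, a log2 difference of -1.18 (SE 0.22; adjusted p = 0.016 by limma). The CDK inhibitor gene Cdkn1a, which KLF4 and KLF6 are known to activate, had 6819, 9071 and 14043 normalised reads and did not pass (limma, adjusted p = 0.11); it was chosen after its values were seen.

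Klf2, Klf4, Klf6 and Klf10 are often induced early after growth factor or stress signals, and an immediate early list without them gives the setting. Of 22 tested, 3 rose (Ier3, Arc and Btg2) and 1 fell (Ier5), with a median log2 fold change of 0.23. Limma called 7.22% of all genes tested higher and 7.11% lower. In this list 8 had an unadjusted p under 0.05 by limma, against 31.2% of all genes tested. By edgeR and DESeq2, 4 and 5 were called. Fos had 271 normalised reads in shControl against 431 and 901 in shPHF2 replicates 1 and 2, and Egr1 had 3966, 2382 and 4090, both named after their values were seen and neither called (limma, adjusted p = 0.090 and 0.47). The list thus held members above, below and on both sides of the control, as the KLF genes did.

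**Figure D4:**
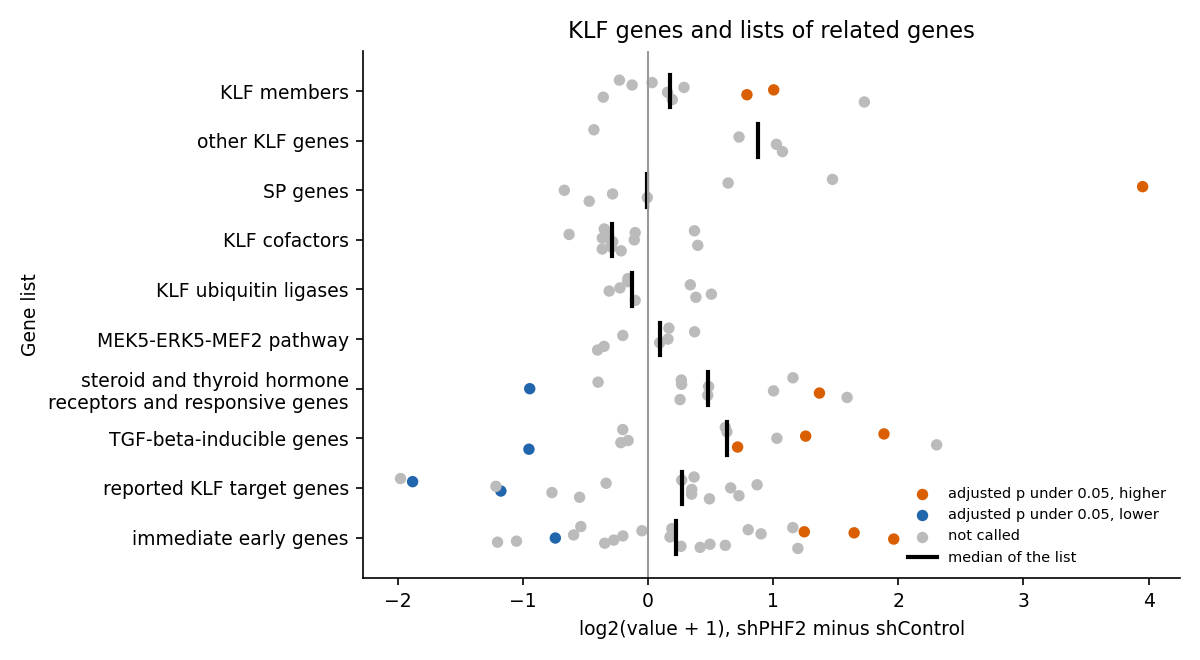
Log2 difference of shPHF2 from shControl for each tested gene, 1 point a gene and 1 row a list, with a black bar at the median of the list, orange and blue points for genes called higher and lower and grey for the rest. The 10 KLF genes have a median of 0.18 and 2 called genes, and the medians of the other lists run from -0.29 for cofactors to 0.88 for the other KLF genes.

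The genes whose 2 differences from the control lay nearest to those of Klf9 were Tnfrsf21, at a distance of 0.016 on the log2 scale, and Xk, at 0.016. For Klf6 they were Them6, at 0.0084, and Pcdhgb2, at 0.011. The distance is Euclidean over the 2 shPHF2 libraries, and 43 genes lay within 0.1 of Klf9 and 92 within 0.1 of Klf6, so many genes share each pattern.

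Glial and neuronal markers are given beside Klf9, which is known from maturing glia and neurons. Of 7 astrocyte markers, S100b rose, from 331 normalised reads in shControl to 1094 in replicate 1 and 850 in replicate 2 (limma, adjusted p = 0.011). The other 6 were not called, and Gfap had at most 20.5 normalised reads in any library. Aqp4 was also sparse, with 0, 6.67 and 37.4 in the order shControl, replicate 1 and replicate 2. Limma called 7.22% of all genes tested higher and 7.11% lower. Both shPHF2 libraries were above the control for 5 of the 7 and below it for 2, against 41.4% and 41.8% of all genes tested. Aldh1l1 had 146, 152 and 1009 in the same order, near the control in replicate 1. Its log2 fold change was the median of the list, 1.42, the direction of Klf9. The summed level of the list went the other way, with 9846 normalised reads in shControl against 8863 and 7608, and most of it was Aldoc (4772, 3998 and 1522) and Gja1 (3853, 2158 and 3284), the 2 lower genes. Of 6 oligodendrocyte lineage markers tested, 0 passed (limma; 1 at an unadjusted p under 0.05, and 0 by edgeR and DESeq2). For 5 of these 6 both shPHF2 libraries were at lower values than the control, among them Pdgfra with 539, 303 and 159 normalised reads, and the median was -0.47. Their summed level of 69620, 64834 and 84165 normalised reads was nearly all Olig1 and Olig2. Of 9 neuronal markers, 1 fell, the RNA-binding protein gene Elavl4 (2533 normalised reads in shControl against 1216 and 1600). The median over the 9 was 0.03, with 1 above the control in both shPHF2 libraries, 4 below and 4 split. Their summed level was 66675, 44449 and 48042 normalised reads, nearly all of it Map2, and Tubb3 had the opposite order with 104, 198 and 346. The part of these cell types in the Klf9 difference was not tested.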

How the data were processed

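Ribosomal RNA-depleted total RNA was sequenced from 3 libraries of mouse neural stem cells, 1 shControl and 2 shPHF2. Reads were processed with HISAT2, HTSeq and DESeq2 on build mm10, per the submitters' processing notes. Tool versions, annotation and strand setting: not given in the sources used here. The deposited signal columns hold read counts divided by DESeq2 size factors, per the file headers and the values: 100% of values were whole multiples of 1 step (within 0.001), so whole reads were recovered. Size factors were 1.00, 1.20 and 0.829 for shControl, shPHF2 replicate 1 and replicate 2. The authors' own DESeq2 log2 fold change, Wald score and p-value stand beside them, per the file headers. The 4 rows that name no gene, 38.7% to 44.0% of reads on no feature among them, were left out, and 0 library columns were unused.

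For testing, log2(value + 1) went into limma 3.58.1 (mean-variance trend) in R 4.3.3, for 14148 genes with a mean of at least 10. There was 1 residual degree of freedom, from the shPHF2 libraries, with 6.94 prior degrees of freedom, and the control library is taken to vary alike. Whether replicates came from separate embryos or infections is not given, so p-values measure the spread between these samples, which may be technical. The fit was tested on simulated data. edgeR 4.0.16 and DESeq2 1.42.0 on recovered reads were alternatives. The KLF members and gene lists were chosen with earlier results of these data known. Named were all members, other KLF and SP genes and Phf2, up to 4 called genes with the largest change per further list, and the 2 nearest genes in pattern. Exon lengths and positions come from GENCODE M21 (GRCm38, as mm10), upstream sequences from RefSeq.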

Additional observations from a re-analysis of the deposited data

How the results depend on the processing

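Of the 11 alternatives, 9 carry a test. Klf6 and Klf9 were both called with pseudocounts of 5 and 0.5, a minimum mean of 50, edgeR, DESeq2 and in the authors' deposited table. With no filter on low values, with quantile normalization and with limma without the trend, 0 KLF genes, 0 genes of the related lists and 0 of all genes were called, against 2, 13 and 2027; 3893, 3700 and 3300 genes had an unadjusted p under 0.05 there, 3 of them KLF genes in each case. In these settings the adjusted p was 0.14, 0.099 and 0.17 for Klf6 and 0.16, 0.11 and 0.19 for Klf9, and the cause was not tested. The median log2 fold change of the 10 KLF genes was 0.17 to 0.23 under the alternatives, and 0.14 to 0.21 with 1 shPHF2 replicate left out, which leaves no degree of freedom for a test, so no calls could be counted. The sign of 8 of the 10 genes held in all alternatives; Klf10 and Klf13, not called, changed sign when 1 replicate was left out. The call of Sox2 was lost with edgeR (adjusted p = 0.054). No paired analysis was possible because shControl has 1 library. The Klf2 control value rests on 31 reads.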
